A study of Mus musculus with 19 samples.

Results

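The hairpin shNr2f1as, directed at the long non-coding RNA (lncRNA) Nr2f1as, was carried by 2 of the 19 RNA-seq libraries of a series that depletes lncRNAs lying head to head with developmental genes in differentiating mouse embryonic stem cells. The libraries were taken by their labels: shNr2f1as replicates 1 and 2, set against shCtrl replicates 1 and 2, the control hairpin in the same culture. All came from the line 46c, grown for 4 days without serum in N2B27 with 5 nM retinoic acid, and all carried a hairpin, the controls included. The labels do not say whether numbers 1 and 2 are separate hairpins, separate cultures or repeats, so effects of a single hairpin sequence cannot be told apart from depletion of the lncRNA. The p-values below rest on the spread between same-group libraries over the whole series, which may be technical. Another 3 libraries of the same culture served for comparison: 1 of shSox21os and 2 of shPou3f3os, hairpins against the lncRNAs beside Sox21 and Pou3f3. Values are FPKM (fragments per kilobase of transcript, corrected for library size). Of the 38424 entries in the deposited table, 14942 reached 1 FPKM in at least 2 of the 19 libraries and were tested.

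Nr2f1, also called COUP-TFI, is a nuclear receptor with no settled ligand. It patterns the forebrain and hindbrain, and retinoic acid induces it in stem cells. Its DNA-binding domain recognises repeats of the letters AGGTCA, which retinoic acid receptors share. A divergent lncRNA starts near a coding gene's promoter and runs the other way, and many such pairs are expressed together. Retinoic acid in N2B27 drives embryonic stem cells toward neural progenitors and turns on the Hox genes, which give cells of the hindbrain and spinal cord their position along the body axis.

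Sox1 and Hprt placed the 4 libraries in the culture the labels describe, while the pluripotency genes Pou5f1 and Nanog varied widely among them, as given below. Sox1, the defining factor of neural plate cells, was at 94.1 and 83.7 FPKM in the controls and 95.003 and 89.8 FPKM in shNr2f1as. The line 46c descends from stem cells that lack Hprt, a purine salvage enzyme, and Hprt stayed at or below 0.426 FPKM in these 4 libraries against 15.5 to 30.9 FPKM in the 12 libraries of LIF withdrawal, which were made from other lines. Library totals of the 7 retinoic acid libraries ran from 595720 to 644269 FPKM, with 12275 to 12757 entries at 1 FPKM or more. The files used here give no read depth, so no counting interval is printed, and low values are the least precise.

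The 2 controls differed from each other more than the shNr2f1as libraries did. Between the controls the standard deviation of the log2(FPKM + 1) difference over the tested entries was 0.459, against 0.363 between the 2 shNr2f1as libraries. Between shNr2f1as and control libraries it was 0.425 to 0.508, and between shNr2f1as and the libraries of the other 2 hairpins it was 0.316 to 0.41. Control 2 was at 0.455 to 0.548 from the 5 hairpin libraries, and control 1 at 0.393 to 0.495, the lowest of these being its distance from shPou3f3os replicate 2. The shNr2f1as libraries were thus no farther from the other knockdowns than control 1 was from control 2. Single genes set both controls apart from the rest, widely expressed ones among them: Eef1a1, a translation elongation factor, was at 2893 and 1198 FPKM in the controls and at 3841 to 5304 FPKM in the other 5 libraries. The labels give a barcode for 4 of the 5 hairpin libraries of this culture and for neither control, so whether the controls were prepared or sequenced apart was not tested. Results are therefore given against the controls and, for part of them, also against the mean of shSox21os and shPou3f3os, which leaves the controls out. In that mean each hairpin has the same weight, so the single shSox21os library counts as much as both shPou3f3os libraries together. A difference given only against control is not thereby particular to shNr2f1as.

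The RNA targeted by the hairpin has no entry under its own name. In RefSeq (GRCm38), A830082K12Rik is a lncRNA that runs on the strand opposite to Nr2f1 and starts inside it. The table lists it at chromosome 13, 78337278 to 78375825 (positions of the mm9 kind), at 0.343 and 0.135 FPKM in the controls, at 0.147 FPKM in shNr2f1as replicate 1 and at 0 in replicate 2. It missed the floor of 1 FPKM and was not tested. The interval of 16242 bases of the unnamed assembled locus XLOC_006022 (chromosome 13, 78338513 to 78354754) lies wholly within it, 269 bases beyond the end of Nr2f1 at which Nr2f1 transcription begins. XLOC_006022 was at 24.7 and 19.3 FPKM in the controls, 10.2 and 5.98 FPKM in shNr2f1as, 5.57 FPKM in shSox21os and 19.4 and 18.8 FPKM in shPou3f3os. Both shNr2f1as libraries lay below both controls, and the shSox21os library lay lower still. The log2 difference from control was -1.37 ± 0.21 (SE; adjusted p = 0.0323), and from the other knockdowns -0.38 (95% interval -0.81 to 0.05; adjusted p = 1). Whether XLOC_006022 is Nr2f1as, and whether reads of the 2 strands were kept apart in the counting, are points not given in the sources used here.

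Nr2f1 itself (chromosome 13, 78328236 to 78338243) moved with this locus. It was at 21.4 and 16.4 FPKM in the controls, 9.35 and 4.94 FPKM in shNr2f1as, 5.10 FPKM in shSox21os and 15.2 and 12.6 FPKM in shPou3f3os. Nr2f1 fell in shNr2f1as, to 0.378 times the control mean, with an interval of the log2 difference from -1.85 to -0.82 (adjusted p = 0.0433). The call was lost without shNr2f1as replicate 2 (adjusted p = 0.0977), without control replicate 1 (0.0645) or without control replicate 2 (0.0549). Against the other knockdowns the log2 difference was -0.28 (95% interval -0.76 to 0.20), with a similar level in shSox21os. The ratio of XLOC_006022 to Nr2f1 stayed between 1.09 and 1.5 in the 7 libraries, so both entries were high and low in the same ones. In the 12 LIF-withdrawal libraries Nr2f1 reached at most 0.290 FPKM and XLOC_006022 0.345 FPKM.

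**Figure D1:**
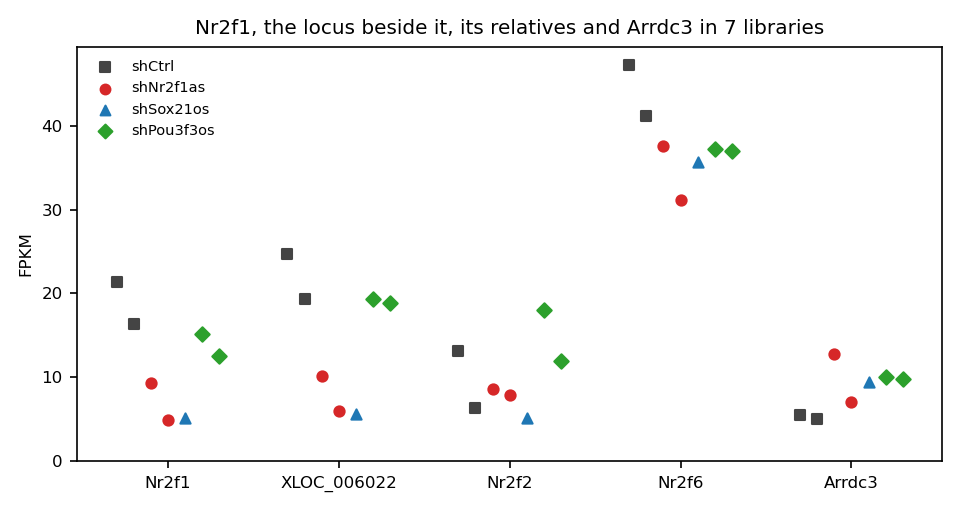
FPKM (vertical axis, linear from 0) of Nr2f1, XLOC_006022, Nr2f2, Nr2f6 and Arrdc3 in each of the 7 retinoic acid libraries; each point is 1 library and the symbol gives its hairpin. For Nr2f1 and XLOC_006022 the shNr2f1as points lie below the controls and beside shSox21os, while the shPou3f3os points lie above both, reaching the control range for XLOC_006022.

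The stretch upstream of Nr2f1 is shown because it is the promoter side of Nr2f1, across which A830082K12Rik runs on the other strand. It holds the 250 bases before the start of the long Nr2f1 transcript, chr13:78198874-78199123, minus strand, GRCm38.p6, from RefSeq, with the GC box GGGCGG (here as its reverse complement) in capitals.
Nr2f1: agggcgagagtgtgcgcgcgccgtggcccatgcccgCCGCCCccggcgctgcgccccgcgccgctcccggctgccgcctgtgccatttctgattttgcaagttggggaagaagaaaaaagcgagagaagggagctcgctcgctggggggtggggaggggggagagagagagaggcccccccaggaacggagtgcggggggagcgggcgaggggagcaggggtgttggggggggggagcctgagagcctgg
A GC box on either strand occurs in 32.7% of the 32851 such stretches in RefSeq. The letters AGGTCA are not in this window.

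The relatives and neighbours of Nr2f1 did not pass the test. Nr2f2 (COUP-TFII), which shares the DNA-binding preference of Nr2f1, was at 13.1 and 6.38 FPKM in the controls and 8.66 and 7.89 FPKM in shNr2f1as, so the groups overlapped (log2 difference -0.14, adjusted p = 0.873; 0.33 without control replicate 1). Nr2f6, the third and more distant family member, was at 47.3 and 41.2 against 37.6 and 31.1 FPKM (log2 difference -0.36, adjusted p = 0.239). Within 3 Mb on either side of Nr2f1, 16 of 37 entries were tested and 2 were called, Nr2f1 and XLOC_006022. The next coding genes along the chromosome, Fam172a on one side and Arrdc3 on the other, had log2 differences of 0.01 and 0.75. Arrdc3, an arrestin-domain protein, was at 5.53 and 5.01 FPKM in the controls, 12.8 and 7.08 FPKM in shNr2f1as and 9.40 to 10.1 FPKM in the other knockdowns. Its 2 controls were thus the lowest of the 7 libraries, without passing the test.

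Across the transcriptome 101 entries passed the test against control (limma, Benjamini-Hochberg adjusted p under 0.05), 0.676% of those tested. Of these 63 rose (0.422% of all tested) and 38 fell (0.254%). At an unadjusted p under 0.05 there were 2699 entries, 18.1%. The median log2 difference over all tested entries was 0.04, with 8254 entries higher than control and 6583 lower. Against the other knockdowns 0 entries passed, 0% of those tested, with 386 (2.58%) at an unadjusted p under 0.05. Both controls lay below all other 5 retinoic acid libraries in 57 of the 63 entries that rose (15.8% of all tested) and above them in 36 of the 38 that fell (12.6% of all tested). In 36 of the 63 both controls were below all 17 other libraries of the series, LIF withdrawal included, and in 28 of the 38 they were above all 17 (6.97% and 6.19% of all tested). In all 101 called entries the shNr2f1as and control libraries did not overlap, against 46.3% of all tested. Called entries thus already had both controls on 1 side of both shNr2f1as libraries. The shares of all tested entries are therefore too low a background for these counts.

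How many entries passed depended on which library was present. Without shNr2f1as replicate 1 there were 43 calls, without replicate 2 there were 60, without control replicate 1 there were 391 and without control replicate 2 there were 55. Of the 101 entries, 8 were called in each of these 4 fits: Myc, Neurog1, Pax2, Prdm12, Rps4x, Acot13, Pramef12 and the unnamed locus XLOC_012997. XLOC_012997 met the floor only through shNr2f1as and shSox21os libraries. The 12 LIF-withdrawal libraries supply most of the residual degrees of freedom. When they were left out, no entry passed (2566 at an unadjusted p under 0.05, smallest adjusted p 0.0622). Every call named below was lost in that fit, and the direction was kept for all 101.

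**Figure D2:**
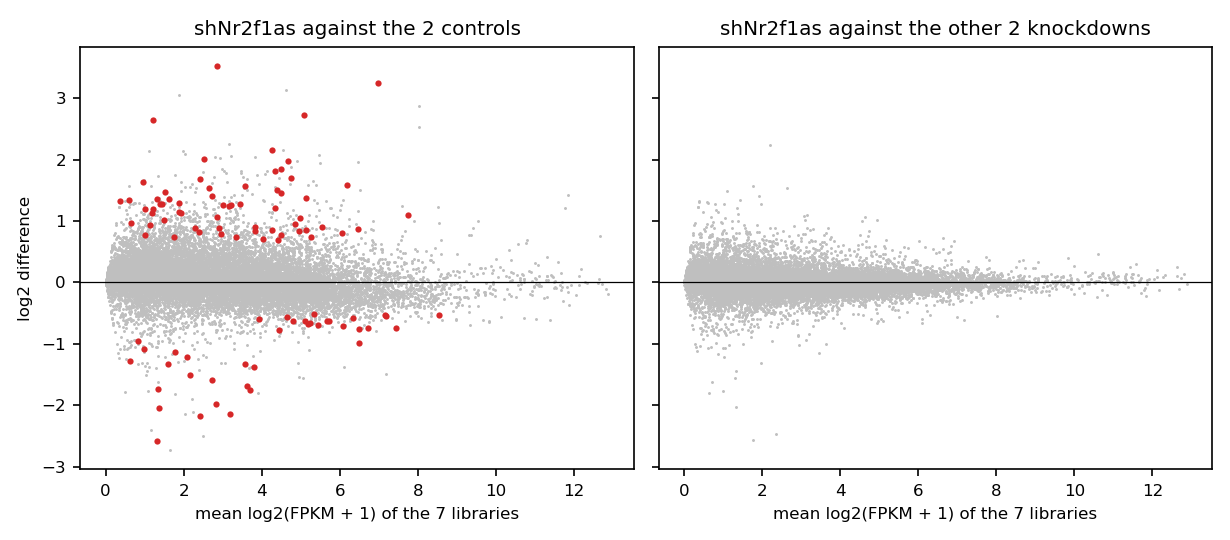
Log2 difference of shNr2f1as (vertical axis) from the 2 controls, left, and from the other 2 knockdowns, right, against the mean log2(FPKM + 1) of the 7 retinoic acid libraries; each point is 1 of 14942 entries and red points passed the adjusted test. The left panel holds 101 red points and the right panel none.

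Several of the 38 entries that fell were transcription factors of the neural tube. Hoxb5, a Hox factor of the posterior hindbrain and anterior spinal cord, was at 13.02 and 15.3 FPKM in the controls and at 3.97 and 1.26 FPKM in shNr2f1as (log2 difference -2.17 ± 0.35, adjusted p = 0.0352). The other knockdowns held it at 1.80 to 4.15 FPKM, so the controls alone were high. Pax2, a factor of the midbrain-hindbrain boundary and of spinal interneurons, was at 15.3 and 11.6 against 4.83 and 2.90 FPKM (log2 difference -1.59 ± 0.20, adjusted p = 0.0161), with 3.51 to 4.32 FPKM in the other knockdowns. Dbx1, which marks a narrow band of ventral neural tube progenitors, fell from 15.9 and 15.5 to 5.34 and 1.82 FPKM (adjusted p = 0.0463). Prdm12, needed for sensory and V1 neuron fate, fell from 5.29 and 4.17 to 1.20 and 0.332 FPKM (adjusted p = 0.017). In all 4 the other knockdowns also lay below both controls. Separate groups were part of the rule that names these genes, and 46.3% of all tested entries had shNr2f1as and control libraries that did not overlap.

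Single genes of progenitors and neurons were also called lower, while the lists they belong to were mixed. Neurog1, a proneural factor of sensory and spinal neurons, was at 1.95 and 1.61 FPKM in the controls and 0.242 and 0.0609 FPKM in shNr2f1as (log2 difference -1.27 ± 0.15, adjusted p = 0.016), a low level at which the scale understates the change. The proneural and Notch list had 12 genes higher and 7 lower among 19 tested (median log2 difference 0.07). Neurog3, a related proneural factor, was at 0.128 and 1.25 FPKM in the controls and 2.78 and 2.13 FPKM in shNr2f1as (log2 difference 1.11, adjusted p = 0.0672). Hes3, a repressor that keeps progenitors undifferentiated, fell from 19.9 and 29.0 to 8.45 and 5.39 FPKM (log2 difference -1.69, adjusted p = 0.017). Pou3f3, a POU factor of neural progenitors and the neighbour of another targeted lncRNA, was at 5.86 and 5.38 FPKM in the controls, 2.50 and 1.31 FPKM in shNr2f1as, 1.88 FPKM in shSox21os and 3.57 and 4.18 FPKM in shPou3f3os itself. The shSox21os value lay between those of shNr2f1as, and the difference from the other knockdowns was not called (log2 difference -0.39, interval -0.80 to 0.01). Sst, the neuropeptide somatostatin, fell from 3.69 and 5.21 to 0.928 and 1.40 FPKM (adjusted p = 0.033). In the other knockdowns Neurog1 was at 0.134 to 0.470, Hes3 at 8.38 to 11.6 and Sst at 0.960 to 2.58 FPKM, all below both controls.

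Myc, a driver of growth and ribosome production, also fell. It was at 35.2 and 25.1 FPKM in the controls, at 7.70 and 8.48 FPKM in shNr2f1as and at 7.06 to 11.1 FPKM in the other knockdowns. The log2 difference was -1.76 ± 0.20 from control (adjusted p = 0.016) and 0.01 from the other knockdowns (interval -0.40 to 0.43). The LIF-withdrawal libraries held Myc at 26.7 to 45.1 FPKM, above shNr2f1as in every library. Foxe3, a lens factor, fell from 6.07 and 5.34 to 1.49 and 0.0682 FPKM (adjusted p = 0.0433). Serpinf1, a secreted neurotrophic serpin, fell from 24.4 and 20.5 to 6.52 and 2.77 FPKM (adjusted p = 0.033). In the other knockdowns Foxe3 was at 0.301 to 1.57 FPKM and Serpinf1 at 4.23 to 6.98 FPKM, also below both controls. Their log2 differences from the other knockdowns were -0.22 and -0.42. Among the 12 largest falls, 9 had an entry in the promoter table, and 3 of these hold AGGTCA on either strand within 250 bases before a start: Neurog1, Foxe3 and Serpinf1. They are shown because AGGTCA is the core that COUP-TF factors recognise, and capitals mark AGGTCA or its reverse complement TGACCT (RefSeq, GRCm38.p6; chr13:56252181-56252430, chr4:114926068-114926317 and chr11:75422624-75422873, all minus strand).
Neurog1: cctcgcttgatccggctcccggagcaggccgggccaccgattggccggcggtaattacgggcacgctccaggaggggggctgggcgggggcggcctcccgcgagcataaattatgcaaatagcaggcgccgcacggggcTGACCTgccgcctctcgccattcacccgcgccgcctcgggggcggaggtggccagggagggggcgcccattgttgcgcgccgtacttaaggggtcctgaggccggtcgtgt
Foxe3: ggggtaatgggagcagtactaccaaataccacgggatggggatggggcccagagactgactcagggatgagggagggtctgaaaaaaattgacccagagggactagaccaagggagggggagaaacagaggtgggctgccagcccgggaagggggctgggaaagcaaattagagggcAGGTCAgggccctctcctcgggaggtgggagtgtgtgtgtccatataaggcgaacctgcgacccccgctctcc
Serpinf1: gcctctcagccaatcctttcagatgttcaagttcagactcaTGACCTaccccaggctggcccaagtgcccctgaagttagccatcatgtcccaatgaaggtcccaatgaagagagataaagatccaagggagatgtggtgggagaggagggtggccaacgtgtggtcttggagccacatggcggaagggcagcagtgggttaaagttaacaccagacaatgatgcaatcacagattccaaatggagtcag
On either strand AGGTCA occurs in 14.0% of the 32851 stretches of this length. It was also found in 3 of the 9 matched genes among the 12 largest rises (Rps4x, S100a11 and Sfn). A gene with several stretches was counted if any held the letters, so counts of genes and the share of stretches are unlike units. The direct repeat AGGTCANAGGTCA, the arrangement COUP-TF factors bind most tightly, was found in none of the 18 matched genes and in 11 stretches in all. Each match is a description of letters, not of binding.

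Some calls were in genes of mitochondria and of the proteasome, with smaller differences. Mrpl12, a protein of the mitochondrial ribosome, was at 201 and 192 FPKM in the controls and at 138 and 129 FPKM in shNr2f1as (log2 difference -0.55, adjusted p = 0.0352). Hspd1, the mitochondrial chaperonin, was at 244 and 243 against 142 and 148 FPKM (adjusted p = 0.0433). Psmc5, an ATPase of the proteasome, was at 135 and 157 against 79.5 and 94.0 FPKM (adjusted p = 0.0471). The other knockdowns held Hspd1 at 143 to 167 FPKM and Psmc5 at 89.3 to 101 FPKM. By name, 76 mitochondrial ribosomal proteins were tested: 56 were lower and 20 higher than control, 3 were called lower (Mrpl12, Mrpl20 and Mrps17, beside 0.254% of all tested entries), and the median was -0.17 against 0.04 over all tested entries. The other knockdowns shared the lower level, since the median difference from them was -0.04 and both controls were the highest of the 7 libraries in 32 of the 76, against 12.6% of all tested entries. Of 38 proteasome subunits 25 were lower and 13 higher, with Psmc5 as the call. Of 22 genes of mitochondrial import 16 were lower and 6 higher, with Timm10 called lower and Tomm20 called higher, the latter from 19.1 and 18.7 to 38.6 and 30.6 FPKM (log2 difference 0.83, adjusted p = 0.0458). This family and the other families grouped by name were chosen after values had been seen.

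The largest rises were in genes that were low in both controls. Rps4x, a ribosomal protein with near-identical copies elsewhere in the genome, to which reads may be split, was at 27.2 and 15.6 FPKM in the controls, 369.9 and 114 FPKM in shNr2f1as and 241 to 334 FPKM in the other knockdowns. Its log2 difference was 3.26 ± 0.42 (adjusted p = 0.0161) from control and -0.56 from the other knockdowns, and the 12 LIF-withdrawal libraries held 524 to 1234 FPKM. The controls were the lowest of all 19 libraries. Of 82 cytosolic ribosomal proteins tested, only Rps4x was called, and the median was 0.01. Magoh, a core protein of the exon junction complex, was at 9.06 and 2.80 against 40.0 and 17.4 FPKM (adjusted p = 0.0458), and Emc2, a subunit of the membrane insertion complex, at 1.36 and 0.391 against 8.80 and 4.47 FPKM (adjusted p = 0.0244). S100a11, a calcium-binding protein of epithelia, rose from 15.7 and 4.55 to 112 and 35.1 FPKM (adjusted p = 0.0496). In all 4 control replicate 1 was above control replicate 2, shNr2f1as replicate 1 was above replicate 2, and the other knockdowns lay among the shNr2f1as libraries or above them.

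Some of the genes that rose are known from epithelia. Cldn6, a tight-junction claudin of early epithelia, was at 7.47 and 15.5 FPKM in the controls, 36.5 and 47.7 FPKM in shNr2f1as, 32.3 FPKM in shSox21os and 17.3 and 18.5 FPKM in shPou3f3os. The log2 difference was 1.85 ± 0.34 from control (adjusted p = 0.0433) and 0.77 from the other knockdowns (interval 0.08 to 1.46; adjusted p = 1). Cldn3, a second claudin, rose from 7.64 and 13.5 to 33.4 and 54.9 FPKM (adjusted p = 0.0458), and was called in none of the fits that left out a library (adjusted p 0.0523 to 0.156). Sfn (stratifin, a 14-3-3 protein of epithelia) was at 2.72 and 5.21 FPKM in the controls, 14.3 and 11.7 FPKM in shNr2f1as, 5.13 FPKM in shSox21os and 3.80 and 1.85 FPKM in shPou3f3os. Here the shNr2f1as libraries were the highest of the 7, and the other knockdowns sat with the controls: the log2 difference was 1.53 from control (adjusted p = 0.0458) and 1.54 from the other knockdowns (interval 0.95 to 2.14; adjusted p = 0.75). Gbp2, an interferon-induced GTPase, followed the same order less sharply, at 0.264 and 0.108 FPKM, then 3.07 and 2.30 FPKM, with 0.433 to 1.23 FPKM in the other knockdowns.

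Other called rises belonged to varied functions. Stmn2, a microtubule regulator of growing neurons, was at 42.1 and 34.3 FPKM in the controls, 97.2 and 140 FPKM in shNr2f1as and 73.4 to 87.4 FPKM in the other knockdowns, so that shNr2f1as was highest (log2 difference 1.59 ± 0.24, adjusted p = 0.0323; 0.58 from the other knockdowns, adjusted p = 1). It was the only called member among 20 tested neuron genes, whose median was -0.04. Pdlim2, a cytoskeletal adaptor, rose from 7.71 and 4.09 to 16.8 and 21.1 FPKM (adjusted p = 0.0323), and Col1a2, a collagen chain of fibroblasts, from 3.26 and 2.42 to 6.42 and 12.7 FPKM (adjusted p = 0.0433). Dab2, an endocytic adaptor of visceral endoderm, rose from 15.4 and 7.75 to 29.5 and 34.8 FPKM (adjusted p = 0.0401), and Tek, the endothelial angiopoietin receptor, from 0.579 and 0.280 to 1.596 and 2.77 FPKM (adjusted p = 0.0458). In the other knockdowns Pdlim2 was at 7.90 to 14.2, Col1a2 at 4.44 to 8.11, Dab2 at 18.0 to 35.2 and Tek at 0.867 to 2.24 FPKM. All of these lay above both controls. Clybl and Mgst1, enzymes of mitochondrial metabolism and of glutathione conjugation, complete the 12 largest rises with log2 differences of 1.82 and 1.69. Against the other knockdowns their log2 differences were -0.12 and -0.21.

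**Figure D3:**
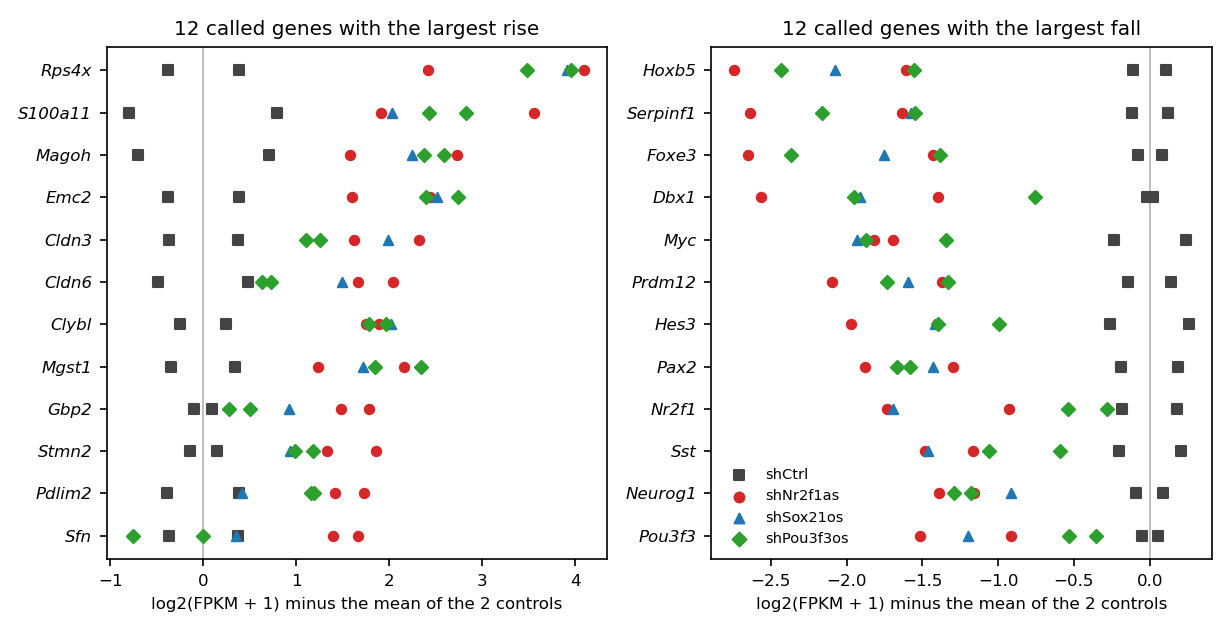
Log2(FPKM + 1) minus the mean of the 2 controls (horizontal axis) for the 12 named genes with the largest called rise, left, and fall, right, in each of the 7 retinoic acid libraries; each point is 1 library and the symbol gives its hairpin. For most genes the points of all 3 knockdowns lie on the same side of the controls; Sfn is an exception, with shSox21os and shPou3f3os among or below the controls.

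No entry passed the test against the other hairpins. Both shNr2f1as libraries lay outside the range of the 3 other knockdown libraries in 27 of the 101 called entries, 18 of those that rose and 9 of those that fell, against 17.04% of all tested entries. XLOC_010224, an unnamed locus (chromosome 17, 26273600 to 26275626), reached 1.22 and 1.84 FPKM in shNr2f1as and was listed at 0 in the other 5 retinoic acid libraries. The LIF-withdrawal libraries held it at 0.611 FPKM or less. It thus met the floor only through the shNr2f1as libraries, so its being tested rested on the values compared. XLOC_012997 (chromosome 2, 161167429 to 161172534) reached 6.37 and 4.28 FPKM in shNr2f1as and 8.79 FPKM in shSox21os, which was thus higher still. It was listed at 0 in all other libraries of the series, so it too met the floor only through libraries in which it was high. The predicted gene Gm15906 went the other way, at 4.91 and 5.07 FPKM in the controls, listed at 0 in both shNr2f1as libraries and at 0.472 to 2.69 FPKM in the other knockdowns. The adjusted p against the other knockdowns was 0.75 for both loci and 1 for Gm15906. These 3 entries fall outside the rule for named genes and were chosen after their values were seen. For scale, 12 of the 101 calls were unnamed assembled loci, 11 higher and 1 lower, among 1241 such loci tested. Over all tested entries 0.676% were called, 0.422% higher and 0.254% lower.

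The Hox genes, the best-known targets of retinoic acid, were mostly lower in shNr2f1as than in control. Of 15 anterior Hox genes (paralogue groups 1 to 5), all tested, 13 were lower and 2 higher; 1 was called, Hoxb5. Their median log2 difference was -0.90, between -1.10 and -0.69 when a library was left out, against 0.04 over all tested entries. Summed over the list, the level was 400.2 and 385 FPKM in the controls, 259 and 192 FPKM in shNr2f1as and 232 to 275 FPKM in the other knockdowns. The largest difference without a call was that of Hoxd4, at 19.1 and 11.1 FPKM in the controls and 4.45 and 0.376 FPKM in shNr2f1as (log2 difference -2.51, adjusted p = 0.0564). Hoxb4 was at 26.2 and 20.6 against 11.8 and 5.68 FPKM (adjusted p = 0.0584), and Hoxc5 at 10.8 and 7.39 against 3.22 and 0.210 FPKM (adjusted p = 0.0564). The 2 members with a higher mean were genes of the front end of the clusters: Hoxa2 was at 23.7 and 18.2 against 27.4 and 22.1 FPKM, and Hoxb1 at 19.2 and 40.4 against 31.9 and 34.2 FPKM. Against the other knockdowns the list's median was -0.14, none was called, and in none of the 15 did both shNr2f1as libraries lie outside the range of the other knockdowns. In 10 of the 15 both controls were the highest of the 7 libraries, against 12.6% of all tested entries.

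Hox genes of groups 6 to 13 were mostly silent. Of 24 listed, 9 were tested, none was called, and the median was -0.39 (-0.54 without control replicate 1, -0.24 without control replicate 2). Hoxb8 was at 10.7 and 16.9 FPKM in the controls and 7.42 and 3.05 FPKM in shNr2f1as (log2 difference -1.31, adjusted p = 0.0988). Hoxb6 was at 2.26 and 5.86 against 0.675 and 0.160 FPKM (log2 difference -1.76, adjusted p = 0.0578).

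**Figure D4:**
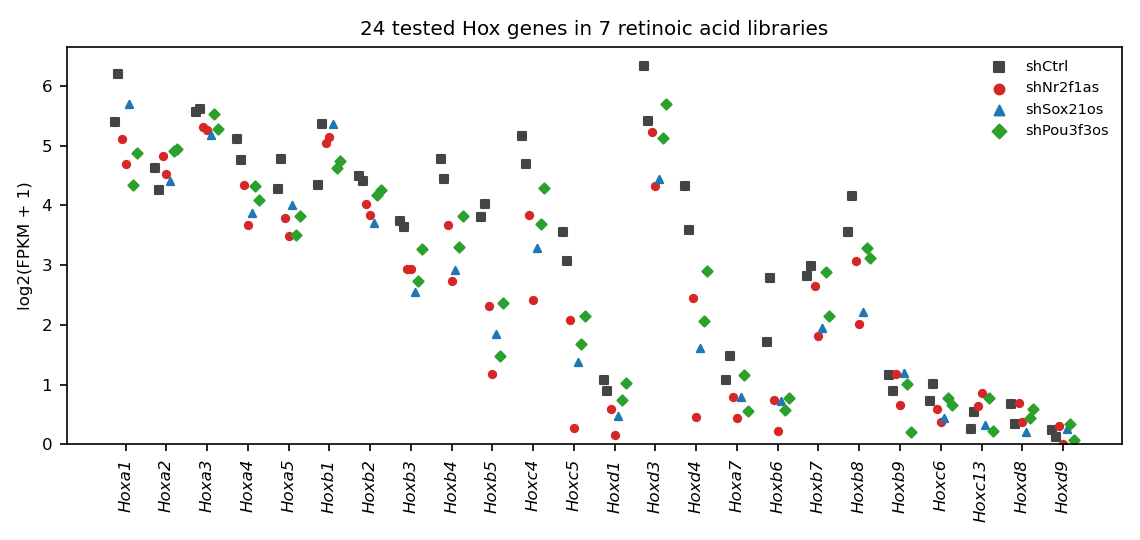
Log2(FPKM + 1) (vertical axis) of the 24 tested Hox genes in each of the 7 retinoic acid libraries, anterior groups first; each point is 1 library and the symbol gives its hairpin. The controls are the 2 highest points for Hoxb4, Hoxb5, Hoxc4, Hoxc5 and Hoxd4, and shNr2f1as replicate 2 is the lowest point for each of them.

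The machinery that carries and senses retinoic acid had no called member. The list of receptors, binding proteins and enzymes had 18 tested genes and also counted the transcription factor Tshz1. Of the 18, 9 were higher and 9 lower, none was called, and the median was -0.06 (-0.15 to 0 with a library left out). Rarb, the receptor that retinoic acid induces, was at 23.5 and 10.7 FPKM in the controls and 16.6 and 7.87 FPKM in shNr2f1as. Tshz1, a zinc-finger factor, was at 61.6 and 41.8 against 30.9 and 12.6 FPKM (log2 difference -1.31, adjusted p = 0.0763), and Stra6, a retinol transporter, at 52.6 and 44.1 against 97.8 and 62.7 FPKM (adjusted p = 0.174). Dhrs3, which reduces retinaldehyde to retinol, was at 20.1 and 18.3 against 9.70 and 11.3 FPKM (adjusted p = 0.161).

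General neural markers had few calls. Of 24 neural plate and progenitor genes 10 were higher and 14 lower, with 1 called, Pou3f3, and a median of -0.09, which was 0.06 without control replicate 1 and -0.41 without control replicate 2. Pax6, a factor of neural progenitors, was at 89.8 and 65.0 FPKM in the controls and 59.2 and 45.5 FPKM in shNr2f1as (adjusted p = 0.256). Lists of dorsoventral and anteroposterior patterning factors each held 1 call, Dbx1 and Pax2, with medians of -0.28 over 16 genes and -0.05 over 14. Without shNr2f1as replicate 1 these medians were -0.41 and -0.14, without shNr2f1as replicate 2 -0.14 and -0.02, and without control replicate 2 -0.18 and -0.05.

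Epithelial and other non-neural lists were mostly higher. Of 19 surface ectoderm, epithelium and trophoblast genes 16 were higher and 3 lower, beside 8254 higher and 6583 lower among all 14942 tested entries. Of the 19, 2 were called higher, Cldn3 and Cldn6, beside 0.422% of all tested entries. The median was 0.78 (0.60 to 1.03 with a library left out) and 0.44 against the other knockdowns. Krt8, a keratin of simple epithelia, was at 17.3 and 8.93 FPKM in the controls, 56.6 and 41.5 FPKM in shNr2f1as and 23.8 to 32.6 FPKM in the other knockdowns (adjusted p = 0.061 against control). Krt19 was at 6.43 and 2.68 against 16.6 and 14.1 FPKM, with 5.92 to 7.50 FPKM in the other knockdowns (log2 difference 1.64 from control, adjusted p = 0.0537; 1.02 from the other knockdowns, adjusted p = 1). For both keratins the 2 shNr2f1as libraries were the highest of the 7, and in 6 of the 19 genes they lay outside the range of the other knockdowns, 31.58% against 17.04% of all tested entries. Defining epidermal genes were at or near 0: Krt14 reached at most 0.0585 FPKM in the 7 libraries, and Krt5 and Trp63 missed the floor. In bulk RNA more cells of a type and more RNA per cell cannot be told apart. Among 12 fibroblast and feeder genes 10 were higher, with 1 called, Col1a2, and a median of 0.36 (0.23 without control replicate 1). The imprinted list had 16 of 18 genes higher, none called, and a median of 0.36 (0.15 without control replicate 2).

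Pluripotency genes did not separate shNr2f1as from control. Of 25 pluripotency genes 22 were higher in shNr2f1as and none was called, with a median of 0.22 that was 1.03 without control replicate 2 and -0.38 without control replicate 1. Against the other knockdowns the list's median was 0.41, with 21 genes higher, 4 lower and none called. In 3 of the 25 both shNr2f1as libraries lay outside the range of the other knockdowns, against 17.04% of all tested entries. Pou5f1 (Oct4), the core pluripotency factor, was at 43.5 and 282 FPKM in the controls, 92.1 and 194 FPKM in shNr2f1as, 180 FPKM in shSox21os and 47.2 and 44.6 FPKM in shPou3f3os. Both shNr2f1as libraries lay between the 2 controls. Nanog was also between them, at 22.5 and 32.0 against 8.65 and 59.1 FPKM. The LIF-withdrawal libraries held Pou5f1 at 167 to 727 FPKM, a range that control replicate 2, shNr2f1as replicate 2 and shSox21os reached. They held Nanog at 33.7 to 117 FPKM, which control replicate 2 and shSox21os (34.1 FPKM) reached. Whether this spread in pluripotency genes bears on the called genes was not tested. T (Brachyury) and Sox17, markers of primitive streak and endoderm, were low: T was at 1.66 and 0.637 FPKM in the controls and 5.63 and 0.699 FPKM in shNr2f1as, and Sox17 stayed at or below 0.798 FPKM.

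Genes of the integrated stress response were mostly lower. Of 28 genes 22 were lower and 6 higher, with a median of -0.34 (-0.31 to -0.29 with a library left out), and 1 was called in each direction. Atf4, the transcription factor of this response, was at 135 and 133 FPKM in the controls, 70.5 and 88.3 FPKM in shNr2f1as and 71.7 to 72.7 FPKM in the other knockdowns (log2 difference -0.75 ± 0.13, adjusted p = 0.038). Slc7a11, a cystine transporter that Atf4 is known to activate, went the other way, from 0.640 and 0.0933 to 3.50 and 2.06 FPKM (adjusted p = 0.0433). The other knockdowns held Slc7a11 at 2.60 to 3.56 FPKM. Sesn2, a stress-induced regulator of growth signalling, was at 78.5 and 82.0 against 46.8 and 49.7 FPKM (adjusted p = 0.096). Both controls were the highest of the 7 libraries in 15 of the 28, against 12.6% of all tested entries, and the median difference from the other knockdowns was 0.04.

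Cholesterol synthesis genes were the list most often outside the other knockdowns. In 13 of 19 genes both shNr2f1as libraries lay beyond the range of the 3 other knockdown libraries, with 17.04% of all tested entries as the background, and the list's median was -0.28 against the other knockdowns and -0.11 against control (-0.22 without control replicate 2, -0.04 without control replicate 1). None was called in either comparison. Lss, lanosterol synthase, was at 41.1 and 29.8 FPKM in shNr2f1as, 46.6 to 55.4 FPKM in the other knockdowns and 50.2 and 43.5 FPKM in the controls. Insig1, which holds back sterol synthesis, was at 26.7 and 22.3 FPKM, against 31.4 to 34.7 FPKM in the other knockdowns and 32.6 and 26.1 FPKM in the controls. Both genes were lower in shNr2f1as than in the other knockdowns by log2 differences of -0.56 and -0.44, each with an adjusted p of 1.

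Of the remaining lists, immediate early and primed epiblast genes had medians above the 0.04 of all tested entries, and the others lay nearer to it. Medians against control lay between -0.13 and 0.22 for the lists of mitosis, p53 targets, hypoxia and glycolysis, Hedgehog, Wnt, BMP and Nodal, FGF, axon guidance, interferon response, neural crest, primitive streak, endoderm, lateral mesoderm and housekeeping genes, with no call beyond Dab2 and Tek; with a library left out these medians ran from -0.18 to 0.50. Of 17 interferon response and antigen presentation genes 15 were higher and 2 lower than control, and in 8 (47.06%) both shNr2f1as libraries lay outside the range of the other knockdowns. Bst2, an interferon-induced membrane protein, was at 21.0 and 45.0 FPKM in the controls, 69.1 and 90.6 FPKM in shNr2f1as, 66.2 FPKM in shSox21os and 39.3 and 44.2 FPKM in shPou3f3os (adjusted p = 0.169 against control). Of 18 genes of primitive streak and caudal mesoderm, 6 (33.33%) lay outside in the same way, with a median of 0.21 against control that was -0.18 without shNr2f1as replicate 1. Immediate early genes had a median of 0.38, with 13 of 16 higher and the fall of Myc as the call (0.23 without shNr2f1as replicate 2, 0.19 without control replicate 2). Primed epiblast genes had a median of 0.49, with 6 of 9 higher and none called, and that median was 0.03 without shNr2f1as replicate 2, 0.91 without shNr2f1as replicate 1, 0.29 without control replicate 1 and 0.96 without control replicate 2.

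**Figure D5:**
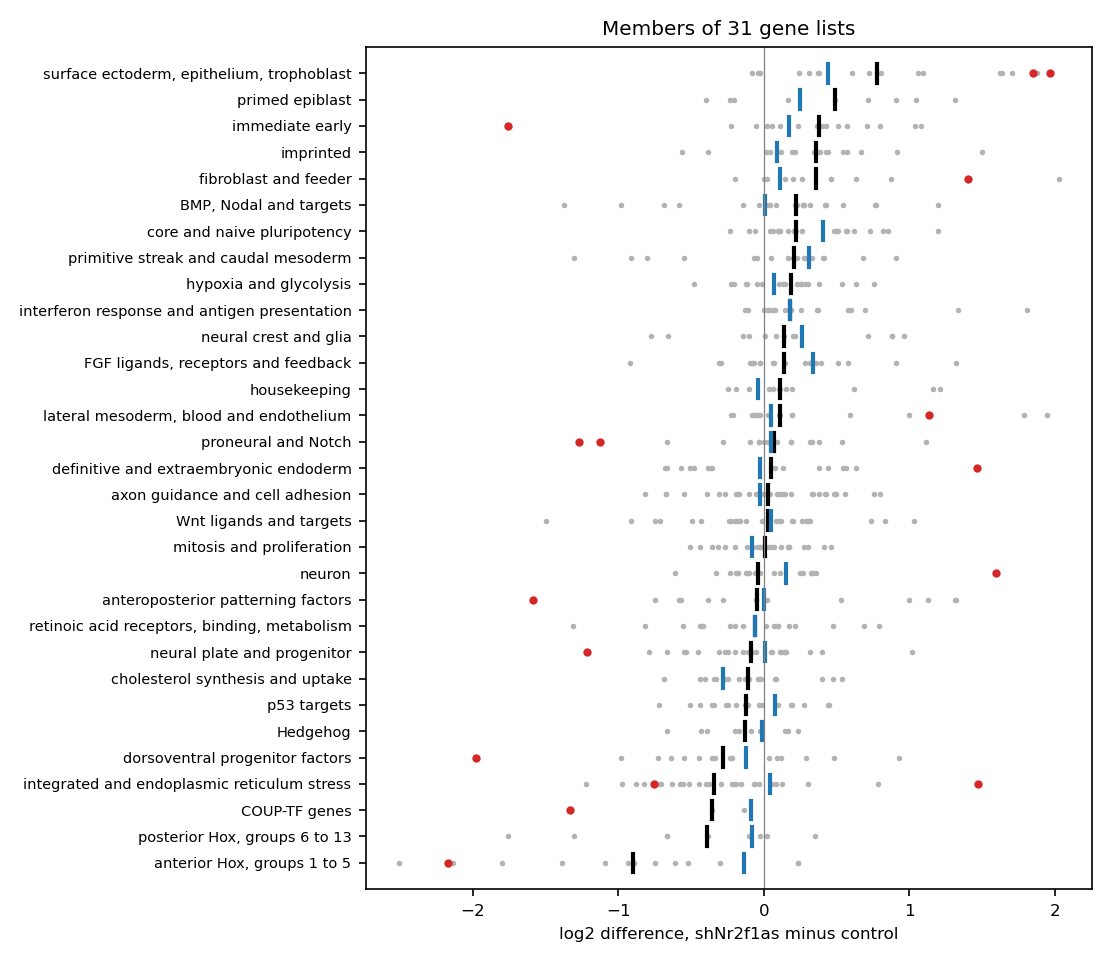
Log2 difference from control (horizontal axis) of the members of the 31 gene lists; grey points are members, red points members that passed the adjusted test, black bars the median against control and blue bars the median against the other knockdowns. The anterior Hox list has its black bar at -0.90 and its blue bar at -0.14, and the surface ectoderm list has 0.78 and 0.44.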

How the data were processed

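Per the labels' protocols, polyadenylated RNA was made into libraries with a stranded kit. The authors deposited 1 table of FPKM values, made with CASAVA and TopHat2 2.0.11 per the submitters' processing notes. The notes name the builds mm9 and mm10, while quantifier and use of strand were not given in the sources used here. Of 21396 symbols matched on the same chromosome, 5.21% had an end within 1000 bases of GRCm38, so table positions are given as of the mm9 kind, with starts changed to 1-based counting.

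Log2(FPKM + 1) of the 19 libraries was modelled with limma 3.58.1 (R 4.3.3), 1 mean per group for 12 groups (7 residual degrees of freedom, variance prior following the level, Benjamini-Hochberg adjustment over 14942 entries, two-sided, threshold 0.05). The scale understates changes of low genes. The test was checked on simulated data. Alternatives were another pseudocount, other floors, rescaling, other sets of libraries, a replicate block and leaving out single libraries. Leaving out a library leaves an arm of 1, which is assumed to vary like the other groups.

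The libraries and the 31 lists were chosen with earlier results of these data known. Genes named were the Nr2f1 locus and family, the 12 largest called rises and falls with separate groups, without predicted, RIKEN, microRNA, accession-only or unnamed entries (15 called higher and 6 called lower were left out so), up to 4 genes with the smallest p and any called member per list, and 6 lineage markers. Genes named beyond this rule (Hprt, Arrdc3, Fam172a, Acot13, Pramef12, Mrpl12, Mrpl20, Mrps17, Timm10, Tomm20, Hspd1, Psmc5, Rarb, Krt5, Krt14, Trp63, Hoxa2, Hoxb1, Insig1 and the loci said to be so) were chosen after their values were seen. A result that the rule would name is not reported here. Same-numbered shNr2f1as and control libraries had a correlation of deviations of 0.303, and the labels do not pair them.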

Additional observations from a re-analysis of the deposited data

How the results depend on the processing

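Against control, the 101 calls became 123 with a pseudocount of 0.1, 101 of 10384 entries with a floor of 5 FPKM and 111 with libraries rescaled to the same upper quartile; these 3 stayed within 1.5 times. The count moved to 47 of 27960 entries without a floor and to 54 without a trend in the variance prior. It was 0 with the 7 retinoic acid libraries only, 0 with the shNr2f1as and control libraries only (smallest adjusted p 0.269) and 0 with the replicate block within the 7 retinoic acid libraries (smallest adjusted p 0.177); these fits have 3, 2 and 2 residual degrees of freedom. Leaving out single libraries gave 43 to 391 calls. Against the other knockdowns the count was 0, and 110 without a floor (18 higher and 92 lower), where entries near 0 in most libraries enter the fit; leaving out a shNr2f1as library gave 1 to 2 calls (Slirp without replicate 1, Nop10 and XLOC_021669 without replicate 2). No other alternative run for that comparison gave a call. Direction was kept by all 101 called entries in every alternative that tested them. Among named genes with no call, leaving out single libraries moved the log2 difference of Nanog between -1.11 and 1.53, Pou5f1 between -1.07 and 1.60, Nr2f2 between -0.60 and 0.33, Sox1 between -0.03 and 0.14 and T between -0.30 and 1.67, each with a change of sign; the cause was not tested. With rescaling, 100 of the 101 stayed called, and with a pseudocount of 0.1, 79. The correlation of same-numbered deviations was 0.303 between shNr2f1as and control, -0.0533 between shNr2f1as and shPou3f3os and -0.0191 between control and shPou3f3os. The labels do not pair the numbers, and the main fit did not take them as pairs. Whether same-numbered shNr2f1as and control libraries shared a step was not tested.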
